A study of Mus musculus with 15 samples.

Results

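Chaperones of the endoplasmic reticulum (ER) and genes of the unfolded protein response were followed in the aorta of mice infused with angiotensin II (AngII) or vehicle. The members, 46 genes, were chosen by function, and a gene was measured through the probe set that carried its symbol alone and had the highest mean over all 15 arrays. Of the 46 genes 45 were measured. The probe set of Pdia4 also carries Mir704, so Pdia4, a disulfide isomerase, was not analysed here, and the gene now called Ero1a appears under its older symbol Ero1l. Whole aortae came from C57BL6 mice that were 2 months old at pump implantation. In 8 mice the osmotic pump delivered AngII at 1 µg/kg/min for 3 weeks, and in 7 mice it delivered saline over the same time. One array was hybridised per mouse, and values are log2 signals after robust multiarray analysis (RMA). These arrays measure the RNA of all cells of the vessel wall, so a lower signal from fewer cells of a type cannot be told apart from less RNA per cell.

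The ER folds secreted and membrane proteins, and in the aortic wall smooth muscle cells and fibroblasts send collagens and elastic fibre proteins through it. When unfolded proteins accumulate there, 3 membrane sensors respond: IRE1α (Ern1) splices the mRNA of Xbp1, PERK (Eif2ak3) phosphorylates eIF2α and favours translation of ATF4, and ATF6 moves to the Golgi, where it is cleaved. The resulting transcription factors increase transcription of chaperones, of the machinery that degrades misfolded proteins and, under prolonged stress, of Ddit3 (CHOP). A signal from these arrays does not show splicing of Xbp1, phosphorylation of eIF2α or cleavage of ATF6.

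None of the 45 measured genes passed the test between AngII and vehicle arrays (limma, adjusted p under 0.05 over all 15095 probe sets). Over all probe sets the test called 805, or 5.33%, with 366 (2.42%) higher and 439 (2.91%) lower under AngII. These totals shifted between 170 and 509 higher and between 174 and 689 lower when 1 array was left out, with the fewest calls without vehicle 5 and the most without AngII 6. At an unadjusted p under 0.05, 7 of the 45 genes (15.6%) were counted, against 3309 of all probe sets (21.9%). Dnajb11, Edem1, Fkbp7, Pdia6 and Dnajc3 had positive differences among these 7, and Dnajc10 and Ern1 had negative ones. Significance analysis of microarrays (SAM), the test named in the methods of the study, gave none of the 45 genes and 135 probe sets in all at a q of 0. In none of the 45 genes were the AngII and vehicle arrays separate, and in 165 of all probe sets (1.09%) they were. At so small a share, none of 45 does not set the list apart.

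The differences were small as well as uncalled. The log2 fold changes of the 45 genes lay between -0.20 for Creb3l2 and 0.40 for Asns, with a median of 0.05, beside a median of -0.01 over all probe sets. Positive values were found for 31 of the 45 genes (68.9%), and for 47.4% of all probe sets. In 43 of the 45 genes (95.6%) the 95% interval of the difference lay wholly inside a 1.5-fold change in either direction, against 89.3% of all probe sets. It lay inside a 1.25-fold change in 33 genes (73.3%), against 60.3% of all probe sets. The wider intervals were those of Asns, an amino acid synthesis gene, and Sdf2l1, a partner of BiP. The median SD within groups was 0.15 for the 45 genes and 0.16 for all probe sets.

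**Figure D1:**
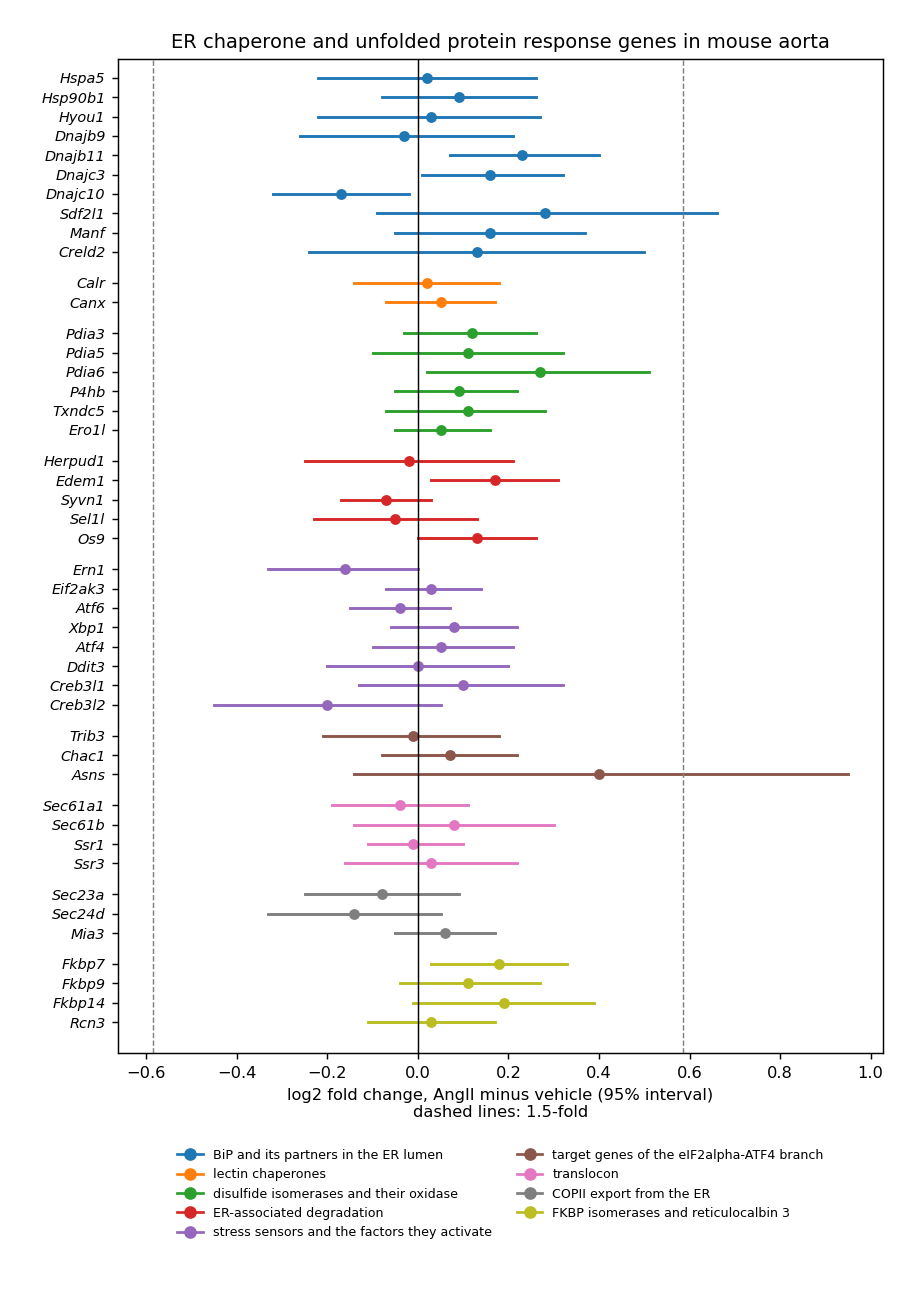
Log2 fold change (AngII minus vehicle) of the 45 measured genes with its 95% interval, coloured by role, with dashed lines at a 1.5-fold change. Most points lie between -0.2 and 0.3, and only the intervals of Asns and Sdf2l1 cross a dashed line.

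Several of these genes share a short element in front of their transcription start. Windows are shown for all 8 genes with this element, which are set beside the variation among mice after the groups, and for Herpud1 and Asns, which hold the other elements searched and of which Herpud1 ran opposite to Hspa5 and Asns varied most. The ER stress response element (ERSE) is CCAAT, 9 bases of any kind and CCACG (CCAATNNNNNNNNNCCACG), bound by NF-Y together with ATF6 or XBP1. It was searched on both strands of the RefSeq promoters of the GRCm38.p6 assembly, from 250 bases before to 50 bases after the start, which were given for 41 of the 46 listed genes, Pdia4 among them. The exact letters were found in 8 of the 41 (19.5%), namely Hspa5, Hsp90b1, Dnajc3, Creld2, Calr, Canx, Pdia6 and Syvn1, and in 37 of 27025 promoters of all genes (0.137%). The related element ERSE-II, ATTGGNCCACG, was found in Dnajb11 and Herpud1 (4.88%, against 0.0444% of all promoters). The core of the element bound by ATF4, TGATGNAA, was found in Txndc5, Herpud1, Trib3, Chac1 and Asns (12.2%, against 4.51%). No match of one element overlapped a match of another. The genes were listed for their part in this response, and the elements searched are those of its transcription factors. A higher share among the listed genes is therefore partly built in, and it was not tested. A match describes letters in a window and does not show binding.
The sequences below run 5′ to 3′ along the gene's strand, with 20 bases on either side of the element where the upstream window allows, and the matched element stands in capitals. The first 8 hold ERSE, with 2 matches in Hsp90b1, the window of Herpud1 holds ERSE-II and that of Asns the ATF4 core.
Hspa5, chr2:34772005-34772063, + strand: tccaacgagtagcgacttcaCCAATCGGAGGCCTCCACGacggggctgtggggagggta
Hsp90b1, chr10:86705513-86705676, - strand: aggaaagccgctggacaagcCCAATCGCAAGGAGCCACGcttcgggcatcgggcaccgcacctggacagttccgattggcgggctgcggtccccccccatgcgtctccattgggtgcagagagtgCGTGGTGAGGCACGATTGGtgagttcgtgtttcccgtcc
Creld2, chr15:88819500-88819558, + strand: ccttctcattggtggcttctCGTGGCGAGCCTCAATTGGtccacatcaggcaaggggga
Calr, chr8:84847055-84847113, - strand: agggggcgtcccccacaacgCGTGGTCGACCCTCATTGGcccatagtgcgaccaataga
Pdia6, chr12:17266471-17266529, + strand: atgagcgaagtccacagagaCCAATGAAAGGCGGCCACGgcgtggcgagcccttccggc
Dnajc3, chr14:118937807-118937865, + strand: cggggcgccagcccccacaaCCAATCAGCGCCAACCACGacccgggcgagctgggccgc
Canx, chr11:50325780-50325838, - strand: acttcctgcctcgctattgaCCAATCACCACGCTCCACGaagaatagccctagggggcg
Syvn1, chr19:6046512-6046570, + strand: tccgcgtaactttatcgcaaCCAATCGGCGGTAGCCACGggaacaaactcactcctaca
Herpud1, chr8:94386357-94386407, + strand: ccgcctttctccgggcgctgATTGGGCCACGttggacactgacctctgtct
Asns, chr6:7693210-7693252, - strand: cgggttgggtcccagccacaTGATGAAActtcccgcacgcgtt
In Hspa5 the element began 65 bases before the start of transcription and in Pdia6 98 bases before it, both on the strand of the gene. In Creld2 and Calr it lay on the opposite strand, from 126 and 162 bases before the start. The 2 matches in Hsp90b1 faced opposite ways.

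BiP and its partners in the ER lumen, 10 genes, had a median log2 fold change of 0.11 and none was called. Hspa5 encodes BiP, the Hsp70 chaperone that also holds the stress sensors inactive. Its log2 signal was 8.61, 9.05 and 9.30 (lowest, median and highest) in AngII arrays and 8.52, 9.06 and 9.14 in vehicle arrays. AngII 2, 3 and 5 lay above every vehicle array, the vehicle array of mouse 7 was the lowest of all, and the groups overlapped over nearly their whole range. AngII 4, 6, 7 and 8, between 8.61 and 8.97, lay below all vehicle arrays but that of mouse 7. Its mean was 9.01 ± 0.244 in AngII (SD, n = 8) and 8.99 ± 0.212 in vehicle arrays (SD, n = 7), for a log2 fold change of 0.02 (standard error 0.112, limma adjusted p = 0.941, exact permutation test p = 0.872). The 95% interval of the log2 fold change ran from -0.22 to 0.26. Without AngII 2, 3 or 5 or vehicle 7 the sign turned, to values between -0.06 and -0.002.
Hsp90b1, the Hsp90 paralogue GRP94, ranged from 11.43 over a median of 11.66 to 11.79 in AngII arrays and from 11.28 over 11.60 to 11.76 in vehicle arrays. The means were 11.63 ± 0.12 (SD, n = 8) and 11.54 ± 0.186 (SD, n = 7) for AngII and vehicle, with a log2 fold change of 0.09 (standard error 0.0796, limma adjusted p = 0.532, exact permutation test p = 0.267). A single AngII array lay above all vehicle arrays. Without vehicle 1 or vehicle 7 the log2 fold change was 0.049 or 0.052.
Among all members Dnajb11 had the smallest p. It encodes ERdj3, a J-domain protein that hands unfolded chains to BiP. Its log2 signal was 7.91, 8.13 and 8.24 (lowest, median, highest) in AngII arrays, against 7.68, 7.84 and 8.12 in vehicle arrays. The upper 4 AngII arrays exceeded every vehicle array, and none lay below the vehicle range. Its log2 fold change was 0.23 (standard error 0.0791), with an adjusted p of 0.0967 from limma (unadjusted 0.00929, exact permutation test p = 0.0151).
Dnajc3, which encodes p58IPK, a J-domain co-chaperone, was at 9.58, 9.76 and 9.94 in AngII arrays and at 9.42, 9.61 and 9.81 in vehicle arrays. Here 3 AngII arrays passed the highest vehicle array, and the log2 fold change was 0.16 (standard error 0.0719, limma adjusted p = 0.192, exact permutation test p = 0.0396).
Dnajc10 encodes ERdj5, which reduces disulfides of proteins bound for degradation, and its difference ran the other way. The AngII arrays were at 9.69, 9.77 and 10.16 and the vehicle arrays at 9.88, 10.06 and 10.10. Of the 8 AngII arrays 5 lay below every vehicle array, while AngII 6 lay above all of them. The log2 fold change was -0.17 (standard error 0.0714, limma adjusted p = 0.173, exact permutation test p = 0.0328). Without AngII 6 it was -0.21 and passed the test (limma adjusted p = 0.0411), the only call of a member under any alternative tried.
Sdf2l1, which forms a complex with ERdj3, ranged from 6.70 over 7.20 to 7.89 in AngII arrays and from 6.29 over 7.09 to 7.40 in vehicle arrays, for a log2 fold change of 0.28 (standard error 0.178, limma adjusted p = 0.372, exact permutation test p = 0.175). Without vehicle 7 the log2 fold change of Sdf2l1 was 0.171. Its within-group SD of 0.378 was above that of 93.4% of all probe sets. Manf, a small ER protein that binds BiP, was at 6.29, 6.68 and 7.02 in AngII arrays and 6.34, 6.47 and 6.79 in vehicle arrays, with a log2 fold change of 0.16 (standard error 0.1, limma adjusted p = 0.372, exact permutation test p = 0.154). For Hyou1, which exchanges the nucleotide of BiP, the log2 fold change was 0.03, for Dnajb9, the J-domain protein ERdj4, -0.03, and for Creld2, an ER protein with EGF-like repeats, 0.13. The groups of these 3 genes overlapped, with limma adjusted p between 0.716 and 0.917.

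**Figure D2:**
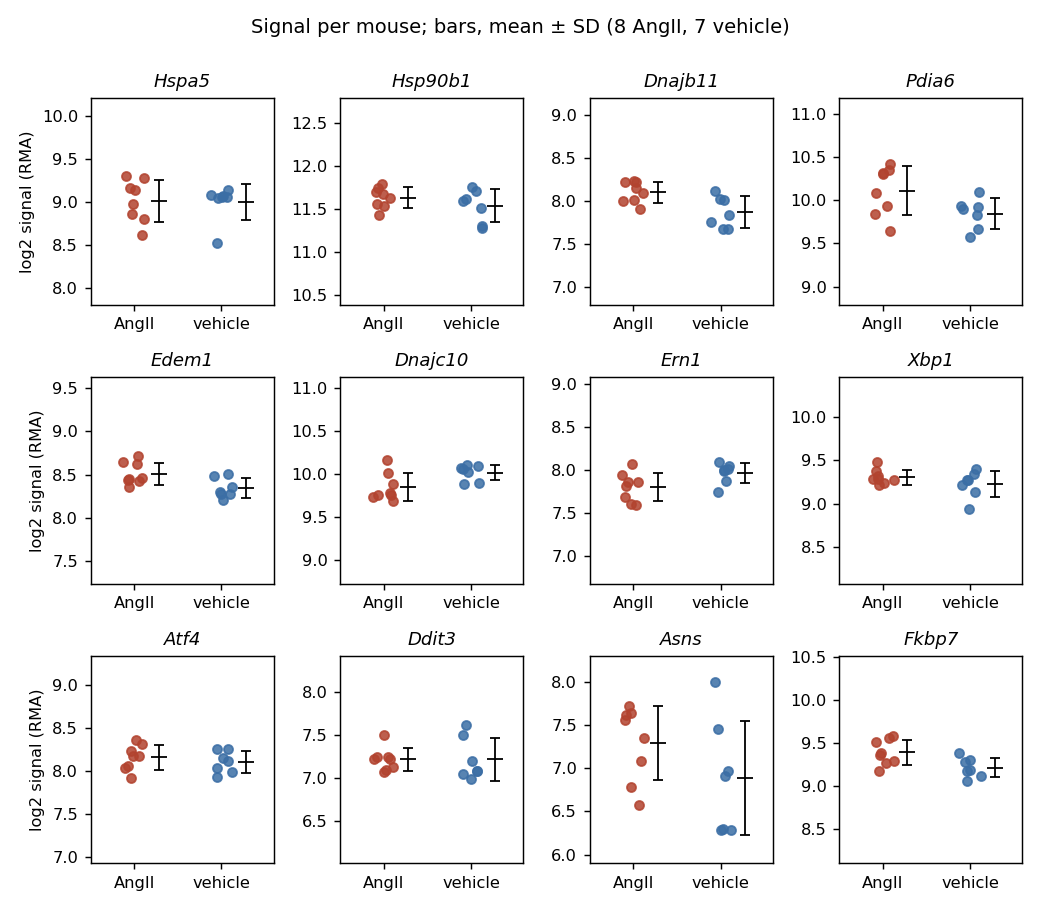
Log2 RMA signal of 12 genes in each mouse, AngII left and vehicle right, with the mean ± SD beside the points; every panel spans 2.4 log2 units. The groups overlap in all 12 panels, and Asns spreads most, from 6.28 to 8.00.

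Calr and Canx, the lectin chaperones calreticulin and calnexin that fold glycoproteins, had log2 fold changes of 0.02 and 0.05. Their intervals stayed inside a 1.25-fold change. Calr was at 11.36, 11.61 and 11.72 (lowest, median, highest) in AngII arrays and at 11.23, 11.60 and 11.68 in vehicle arrays, again with the vehicle array of mouse 7 at the bottom.
The disulfide isomerases and their oxidase all had positive values, from 0.05 for Ero1l, the oxidase, to 0.27 for Pdia6. Pdia6, an isomerase that also acts on the luminal side of IRE1α, was at 9.65, 10.19 and 10.42 in AngII arrays, against 9.57, 9.90 and 10.10 in vehicle arrays. Its AngII arrays split, with 4 between 10.31 and 10.42 above all vehicle arrays and AngII 7 near the lowest vehicle arrays. The log2 fold change was 0.27 (standard error 0.115, limma adjusted p = 0.183, exact permutation test p = 0.0511).
Pdia3, which works with calreticulin and calnexin, was at 11.00, 11.16 and 11.29 in AngII arrays and 10.78, 11.09 and 11.19 in vehicle arrays, for a log2 fold change of 0.12 (standard error 0.0683, limma adjusted p = 0.338, exact permutation test p = 0.0985). Without vehicle 1 the value of Pdia3 was 0.072. P4hb, which is also a subunit of the collagen prolyl hydroxylase, had a log2 fold change of 0.09, Txndc5 of 0.11 and Pdia5 of 0.11. For these 3 isomerases the limma adjusted p lay between 0.454 and 0.554. Pdia5 was highest in AngII 6, at 7.71, while the other AngII arrays lay between 6.98 and 7.28.

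Genes of ER-associated degradation did not move one way. Edem1, a mannosidase-like protein that sends glycoproteins to degradation, was at 8.35, 8.46 and 8.71 (lowest, median, highest) in AngII arrays and at 8.21, 8.30 and 8.52 in vehicle arrays. Only 3 AngII arrays stood above the vehicle range, and the log2 fold change was 0.17 (standard error 0.0662, limma adjusted p = 0.145, exact permutation test p = 0.0208).
Os9, a lectin of the same pathway, was at 9.01, 9.07 and 9.42 in AngII arrays, against 8.90, 8.99 and 9.08 in vehicle arrays. The top value was that of AngII 5, without which the log2 fold change was 0.084. Over all arrays it was 0.13 (standard error 0.0612, limma adjusted p = 0.235, exact permutation test p = 0.0151). Syvn1, the ubiquitin ligase HRD1, and its partner Sel1l had log2 fold changes of -0.07 and -0.05. Herpud1, a membrane scaffold of that complex, had -0.02, with all AngII arrays inside the vehicle range of 9.77 to 10.47.

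Sensors and transcription factors, 8 genes, had a median of 0.02, with 4 values above and 4 below 0. Ern1, which encodes IRE1α, was at 7.59, 7.84 and 8.07 (lowest, median, highest) in AngII arrays and 7.75, 8.00 and 8.09 in vehicle arrays. There were 3 AngII arrays below the vehicle range and none above it, and the log2 fold change was -0.16 (standard error 0.0769, limma adjusted p = 0.224, exact permutation test p = 0.0539). The other sensors had narrow intervals. Eif2ak3, which encodes PERK, had a log2 fold change of 0.03 with an interval from -0.07 to 0.14, and Atf6 one of -0.04 with an interval from -0.15 to 0.07.
Xbp1, whose mRNA is the substrate of IRE1α, was at 9.21, 9.28 and 9.48 in AngII arrays, against 8.94, 9.27 and 9.40 in vehicle arrays. Its medians differed by less than the spread in either group, and the log2 fold change was 0.08 (standard error 0.0664, limma adjusted p = 0.501, exact permutation test p = 0.229). Without vehicle 7 it was 0.034. Atf4, which is regulated mainly through its translation, was at 7.92, 8.18 and 8.36 in AngII arrays and 7.93, 8.12 and 8.26 in vehicle arrays, for a log2 fold change of 0.05 (standard error 0.0734, limma adjusted p = 0.725, exact permutation test p = 0.483). Ddit3, which encodes the stress factor CHOP, was at 7.08, 7.22 and 7.50 in AngII arrays and at 6.99, 7.09 and 7.62 in vehicle arrays. Both means were 7.22, the 95% interval of the log2 fold change ran from -0.20 to 0.20, and no AngII array left the vehicle range (limma adjusted p = 0.998, exact permutation test p = 0.997).
Creb3l1 and Creb3l2 encode OASIS and BBF2H7, factors of the ATF6 family that control secretory and matrix genes in bone and cartilage. Creb3l2 was at 9.42, 9.91 and 10.19 in AngII arrays and 9.87, 9.94 and 10.32 in vehicle arrays, with 3 AngII arrays below the vehicle range and a log2 fold change of -0.20 (standard error 0.119, limma adjusted p = 0.34, exact permutation test p = 0.138). Creb3l1 had a log2 fold change of 0.10 (limma adjusted p = 0.628).

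Asns, the asparagine synthetase gene that ATF4 activates, varied most among the 45 genes, with a within-group SD of 0.55, above that of 97.5% of all probe sets. It was at 6.58, 7.45 and 7.72 (lowest, median, highest) in AngII arrays and at 6.28, 6.91 and 8.00 in vehicle arrays. The vehicle arrays ran from 3 near 6.3 to the highest value of all, and every AngII array lay between these ends. The log2 fold change of 0.40 had a standard error of 0.256 (limma adjusted p = 0.373, exact permutation test p = 0.175), and its interval ran from -0.14 to 0.95. It was -0.20 in naming series A alone and 0.65 in series B alone, and fitted with the adipocyte mean as covariate it was 0.099 (limma adjusted p = 0.61). The other targets of that branch, Trib3, a pseudokinase gene, and Chac1, which encodes a glutathione-degrading enzyme, had log2 fold changes of -0.01 and 0.07. Their signals were low, with means in AngII and vehicle arrays of 5.72 and 5.74 for Trib3 and of 5.52 and 5.45 for Chac1. These lie below the mean log2 value of 6 used as a filter, so a small difference there says little about the branch.

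Translocon genes had small differences. Sec61a1 and Sec61b, of the channel itself, had -0.04 and 0.08, and Ssr1 and Ssr3, of the associated TRAP complex, had -0.01 and 0.03 as log2 fold changes. A second probe set of Ssr1, with a low mean of 5.58, had 0.14 (limma adjusted p = 0.363). The signal of Sec61b was low, with means of 5.51 in AngII and 5.43 in vehicle arrays. COPII genes, which carry cargo out of the ER, had -0.08 for Sec23a, -0.14 for Sec24d and 0.06 for Mia3, the receptor that loads collagen. Within the naming series Sec23a had log2 fold changes of -0.22 in B and 0.18 in A, and Sec24d of -0.29 in B and 0.14 in A. For these genes the interaction had an unadjusted p of 0.0143 and 0.0142 from limma, and no interaction passed after adjustment for any probe set.
FKBP isomerases of the ER, which act on proline bonds of collagen and other matrix proteins, all had positive values. Fkbp7 was at 9.18, 9.37 and 9.58 (lowest, median, highest) in AngII arrays and 9.06, 9.19 and 9.39 in vehicle arrays. Above the vehicle range were 3 AngII arrays, and the log2 fold change was 0.18 (standard error 0.0706, limma adjusted p = 0.153, exact permutation test p = 0.0266). Fkbp14, mutated in a human connective tissue disease, was at 7.23, 7.57 and 7.84 in AngII arrays and 7.17, 7.42 and 7.54 in vehicle arrays. As many as 5 AngII arrays exceeded all vehicle arrays, and the log2 fold change was 0.19 (standard error 0.0934, limma adjusted p = 0.243, exact permutation test p = 0.0698). Fkbp9 and the calcium-binding protein gene Rcn3 had 0.11 and 0.03. A second, dimmer probe set of Fkbp9 had -0.09 (limma adjusted p = 0.669).

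Whether other genes of the same compartment behaved alike was asked with 96 further genes of ER folding, glycosylation, degradation, stress signalling, translocation and export, of which 86 were measured. The test called 4 of these (4.65%, against 5.33% of all probe sets), 2 higher and 2 lower. Rcn1, a calcium-binding protein of the ER and a relative of Rcn3, was at 9.0, 9.11 and 9.22 (lowest, median, highest) in AngII arrays and at 8.36, 8.72 and 8.88 in vehicle arrays. Every AngII array lay above every vehicle array, and Rcn1 rose by 0.47 on the log2 scale (standard error 0.0708, limma adjusted p = 0.0033, exact permutation test p = 0.000155, the smallest that 8 arrays against 7 allow). Fkbp11, a membrane-bound FKBP isomerase, was at 6.45, 6.6 and 6.83 in AngII arrays and 5.89, 6.08 and 6.57 in vehicle arrays, and rose by 0.48 (standard error 0.106, limma adjusted p = 0.0185, exact permutation test p = 0.00218). In Fkbp11 5 AngII arrays exceeded all vehicle arrays.
Slc7a5, an amino acid transporter gene that ATF4 activates, fell by 0.31 on the log2 scale (standard error 0.0777, limma adjusted p = 0.0277, exact permutation test p = 0.00124). It was at 6.55, 6.83 and 7.01 in AngII arrays and 6.94, 7.14 and 7.37 in vehicle arrays, so 6 AngII arrays lay below the vehicle range. Tmx4, a membrane protein of the disulfide isomerase family, fell by 0.28 (standard error 0.0798, limma adjusted p = 0.0488, exact permutation test p = 0.00575), with 7 AngII arrays below every vehicle array and AngII 6, at 8.60, level with the highest vehicle array. The call of Slc7a5 ended without AngII 5 or vehicle 2, 4 or 7 (limma adjusted p from 0.0539 to 0.0612). That of Tmx4 ended without any 1 of 13 arrays, all but AngII 6 and vehicle 1 (limma adjusted p from 0.062 to 0.101). Of the 11 genes of glycosylation, the 9 further genes of degradation, the 12 of translocation and the 16 of export none was called.
Collagens of the wall, which pass through the ER, are given for scale. All 15 had positive log2 fold changes, with a median of 0.32. The test called 2 higher (13.3%, against 2.42% of all probe sets), Col8a1 (1.56, limma adjusted p = 0.004) and Col5a2 (0.58, limma adjusted p = 0.0139). At an unadjusted p under 0.05 there were 12 of 15 collagens (80%) and 7 of the 45 ER genes (15.6%), beside 21.9% of all probe sets. The collagens were listed with earlier results of these data known.

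**Figure D3:**
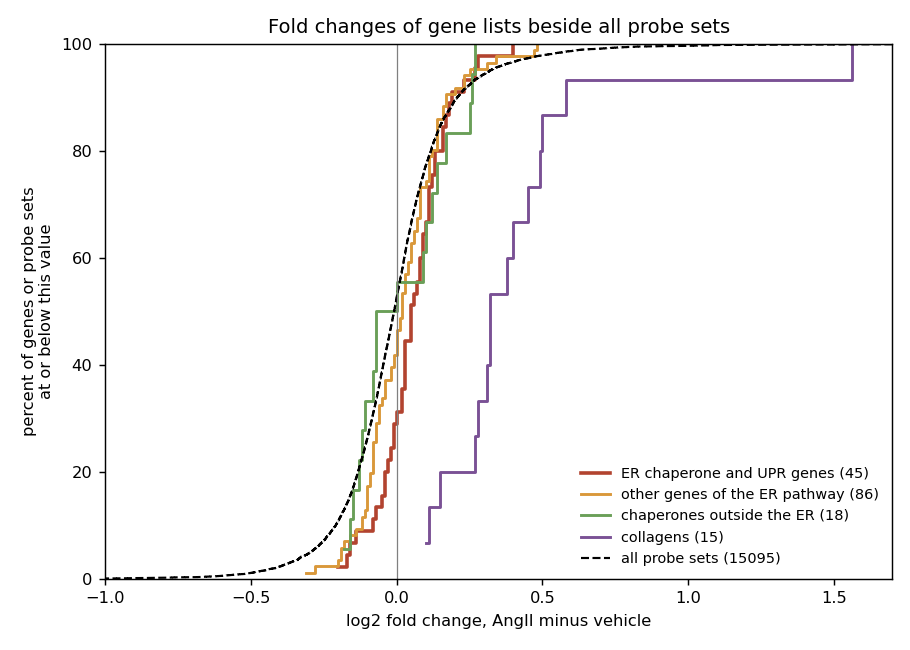
Cumulative share of log2 fold changes (AngII minus vehicle) for the 45 ER chaperone and unfolded protein response genes, 86 other ER genes, 18 chaperones outside the ER, 15 collagens and all 15095 probe sets. The curve of the 45 genes lies somewhat to the right of that of all probe sets around 0, with 68.9% against 47.4% of values positive and a median of 0.05. That of the collagens lies farther to the right, with a median of 0.32.

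Although the groups did not separate, many but not all ER chaperones varied together from mouse to mouse. After the group mean was subtracted from each array, the deviations of Hspa5 correlated across the 15 arrays with those of Pdia6 at r = 0.871, Creld2 at 0.869, Calr at 0.868, Sdf2l1 at 0.867 and Sec61b at 0.825. These 5 genes were among the 50 probe sets whose deviations were most like those of Hspa5. Other chaperones and isomerases did not follow it, with r of 0.18 for P4hb, 0.082 for Txndc5, 0.044 for Dnajc10, -0.026 for Pdia5 and -0.206 for Dnajb9. Hspa5 was lowest in vehicle 7 and AngII 7, and the vehicle arrays other than vehicle 7 spanned only 9.04 to 9.14. How far the r of the 5 genes rested on these arrays was not tested. Over the other 44 genes r had a median of 0.33, beside 0.0256 over all probe sets, and it was above 0.5 in 18 genes and above 0.7 in 9. The points share the arrays, and so their normalization, RNA quality, cell makeup and naming series, whose part in these correlations was not tested. Only group means were subtracted, so a difference between the naming series stayed in the deviations. Series B minus series A was -0.25 on the log2 scale for Hspa5. For Pdia6, Creld2, Calr, Sdf2l1 and Sec61b it lay between -0.46 and -0.11, with none called by limma after adjustment.
Correlations were higher among the chaperones than over the whole list. Over all 990 pairs of the 45 genes r had a median of 0.185, and over the 153 pairs of the 18 chaperones and isomerases 0.415. The 7 other genes with the exact ERSE letters shown above correlated with Hspa5 between 0.613 and 0.871 (median 0.708), and the 32 genes with a given promoter and no such match between -0.734 and 0.867 (median 0.268). All of the 7 but Syvn1 are chaperones, partners of BiP or isomerases, so the element was not separated from that role. Dnajb11, with ERSE-II, was among the 32, at 0.675. Of the genes without a given promoter Hyou1 was at 0.761, Creb3l1 at 0.722, Manf at 0.651, Sec61a1 at 0.522 and Atf6 at 0.334. The part of the element in these correlations was not tested. At the low end of r stood Herpud1, at r = -0.734, and Ddit3, at -0.623. Herpud1 was at 10.47 in vehicle 7 and 10.29 in AngII 7, where Hspa5 was at its lowest, 8.52 and 8.61. It was at 9.98 in AngII 2 and 9.82 in AngII 3, where Hspa5 was at its highest, 9.27 and 9.30. Low Hspa5 was not limited to 1 mouse per group. AngII 4, 6 and 8, at 8.80, 8.97 and 8.86, also lay below every vehicle array other than vehicle 7. The highest values of Hspa5 were those of AngII mice.
In AngII 7, 40 of the 45 genes lay below the mean of their group, and the median deviation of the chaperones and isomerases was -0.187. That of vehicle 7 was -0.144, that of AngII 2 0.145 and that of AngII 3 0.123. The signals of AngII 7 and vehicle 7 correlated with those of the other arrays at a median r of 0.97 and 0.969, inside the range of 0.954 to 0.978 of all arrays.

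**Figure D4:**
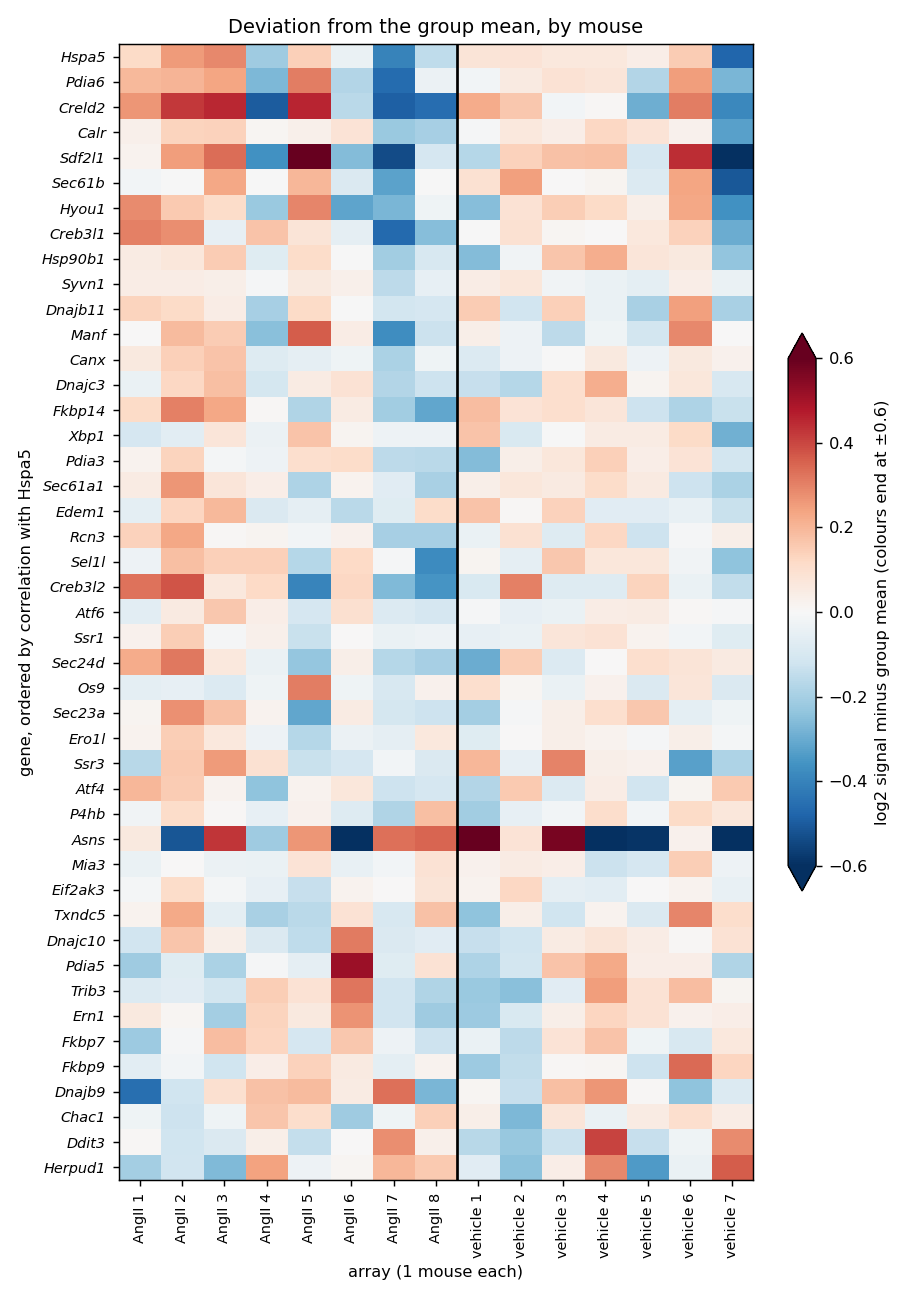
Log2 signal minus the group mean for the 45 genes (rows, ordered by correlation with Hspa5) in each mouse (columns, AngII left of the line, vehicle right); red is above and blue below the group mean. The upper rows are blue in AngII 7 and vehicle 7 and red in AngII 2 and AngII 3. They are mostly blue in AngII 4 and AngII 8 too, and mostly red in AngII 1 and AngII 5. Herpud1 and Ddit3, at the bottom, run the other way in AngII 7 and vehicle 7.

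Permutation tests were run on 6 relations of the group-centred values over the 15 arrays, with p adjusted over the 6. Hspa5 and Hsp90b1 correlated at r = 0.708 (permutation test, p = 0.00342, adjusted 0.0153), with Spearman's rho of 0.536 (p = 0.0432, adjusted 0.122). Without vehicle 7 and AngII 7, the arrays farthest from the median of Hspa5, r fell to 0.462. In the 10 arrays of naming series B alone, which hold both of these arrays, it was 0.915. Hspa5 and Ddit3 correlated at r = -0.623 (permutation test, p = 0.0138, adjusted 0.0276) and rho = -0.568 (p = 0.0295, adjusted 0.122), but at -0.278 without these 2 arrays, so this relation rested on them (-0.618 in series B).
Creb3l1 and Rcn3, a gene of the collagen-producing ER, correlated at r = 0.678 (permutation test, p = 0.0051, adjusted 0.0153) and rho = 0.5 (p = 0.0608, adjusted 0.122), at 0.718 without the same 2 arrays and at 0.458 in series B. The other 3 relations did not pass. Hspa5 and Dnajb9 had r = -0.206 and rho = -0.229 (permutation test, adjusted p of 0.46 and 0.413), Asns and Chac1 r = 0.288 and rho = 0.283 (permutation test, adjusted p of 0.356 and 0.366), and Creb3l1 and the collagen gene Col1a1 r = 0.293 and rho = 0.296 (permutation test, adjusted p of 0.356 and 0.366). No rank correlation passed after adjustment. Series A, with 5 arrays, was too small for a value of its own.

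**Figure D5:**
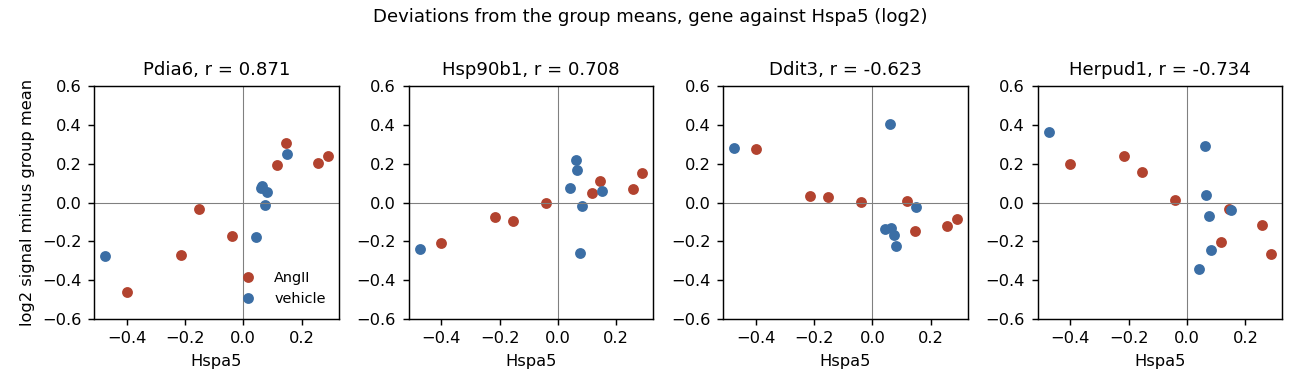
Log2 signal minus the group mean of Pdia6, Hsp90b1, Ddit3 and Herpud1 against that of Hspa5, 1 point per mouse (8 AngII, 7 vehicle). Pdia6 and Hsp90b1 go up with Hspa5 (r = 0.871 and 0.708) and Ddit3 and Herpud1 go down (r = -0.623 and -0.734), with 1 mouse of each group at the low end of Hspa5.

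Names given to the samples by the submitters fall into a series A, with 3 AngII and 2 vehicle arrays, and a series B, with 5 of each. The series differed in 461 probe sets (3.05%) and in none of the 45 genes. At an unadjusted p under 0.05 the series differed in 9 of the 45 genes (20%), against 2431 of all probe sets (16.1%). Lower in series B were Creld2 (log2 difference, B minus A, -0.46), Creb3l2 (-0.30), Fkbp14 (-0.28), Hspa5 (-0.25) and Sec61a1 (-0.15). Herpud1 (0.27), Pdia5 (0.23), Trib3 (0.22) and Fkbp9 (0.17) were higher there. The median log2 fold change of the 45 genes was 0.138 in series A and 0.011 in series B, a difference that was not tested over the list. The interaction of AngII with series had an unadjusted p under 0.05 in 5 of the 45 genes (11.1%) and in 965 of all probe sets (6.39%), and limma called none after adjustment. The 5 genes were Canx, Sec24d, Sec23a, Dnajc3 and Hsp90b1 (limma, unadjusted interaction p of 0.0122, 0.0142, 0.0143, 0.0163 and 0.0485). The log2 fold change was 0.23 in A and -0.05 in B for Canx, and 0.32 and -0.02 for Hsp90b1. For the 7 genes with an unadjusted p under 0.05 between AngII and vehicle arrays the sign was the same in both series. These 7 were picked by their p over all 15 arrays, which hold both series, so a shared sign is partly built in. Dnajb11 had 0.31 in A and 0.18 in B, Pdia6 0.46 and 0.15 in the same order, Dnajc3 0.41 and 0.05, and Dnajc10 -0.01 and -0.24.
All 11 contractile smooth muscle markers were measured in these aortae, with Acta2 at a mean log2 signal of 13.77. Macrophage markers moved with AngII, with 6 of 10 called higher and a mean of 8.45 ± 0.305 in AngII arrays (range 8.13 to 9.03) and 7.85 ± 0.255 in vehicle arrays (7.45 to 8.2, exact permutation test p = 0.000932). Of 9 fibroblast markers 2 were higher (mean 10.8 ± 0.175 in AngII and 10.6 ± 0.111 in vehicle, exact permutation test p = 0.0225), and of 11 contractile markers 2 were lower (11.1 ± 0.242 in AngII and 11.4 ± 0.145 in vehicle, exact permutation test p = 0.0247). Adipocyte markers, 9 measured and none called, averaged from 8.40 to 10.6 in AngII arrays and from 7.98 to 10.6 in vehicle arrays (exact permutation test, p = 0.269). Plasma and B cell markers, of a lineage rich in ER, were measured for only 3 of 11 genes, 1 of them higher (6.56 ± 0.386 in AngII and 6.24 ± 0.214 in vehicle, exact permutation test p = 0.0566). None of the measured markers of endothelial cells (9), striated muscle (5) or nerve (2) was called. The part of these cell types in the differences of the ER genes was not tested. With the adipocyte mean as a covariate again none of the 45 genes was called, and their median log2 fold change was 0.0505, against 0.0542 without it. Single genes moved either way. The log2 fold changes of Asns, Dnajc10 and Ern1 were smaller in size, at 0.099, -0.112 and -0.107, against 0.40, -0.17 and -0.16 without the covariate. Those of Fkbp7, Dnajc3, Pdia3 and Atf4 were larger, at 0.203, 0.183, 0.145 and 0.076, against 0.177, 0.164, 0.116 and 0.051.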

How the data were processed

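RNA of whole aorta was hybridised to Affymetrix arrays, 15 in all, 8 AngII and 7 vehicle. Per the labels and the methods of the study, the authors corrected the background, normalized and summarized the probe sets by RMA in Affymetrix Expression Console and deposited log2 values; these were used as deposited, with no pseudocount and no filter. RMA removes differences in overall brightness between arrays, and a change shared by all genes would be lost. The labels and the methods name different RNA kits. The table held 15095 probe sets, of which 13403 carried 1 symbol in the platform annotation, 958 several and 734 none; a probe set with several symbols named no gene. Replicate numbers name mice only.
Probe sets were tested with limma 3.58.1 (lmFit and eBayes) in R 4.3.3, AngII minus vehicle, Benjamini-Hochberg adjusted over all probe sets at 0.05. Exact permutation tests were two-sided over 6435 regroupings, and correlations used 100000 resamples (scipy 1.17.1). SAM was rebuilt with 100 permutations and its settings may differ from those of the study. On simulated arrays the limma script was tested before use. The members and all gene lists (other ER genes, chaperones outside the ER, collagens, cell type markers), the motifs and the 6 relations were chosen with earlier results of these data known. Full values are given for the 14 members with the smallest p and for Hspa5, Hsp90b1, Xbp1, Atf4, Ddit3 and Asns, and other ER genes were named where called; Calr, Pdia5, Herpud1 and the remaining members given with values were described for their place in a group or after their values were seen. The number of arrays limits the precision. Alternatives were each array left out, a replicate block, the naming series, other normalizations and weights, a filter at a mean log2 value of 6, an adipocyte covariate and SAM.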

Additional observations from a re-analysis of the deposited data

Results flagged for a closer look

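Single arrays stood apart from the rest of their group in 8 of 98 groups of values looked at (the members and the other ER genes named, AngII and vehicle apart), by Dixon's criterion at the 95% level, which chance meets in about 1 of 20 groups. The vehicle array of mouse 7 was low in 3 of them. Hspa5 was at 8.52 there and between 9.04 and 9.14 in the other vehicle arrays. Calr was at 11.23 there, against 11.55 to 11.68, and Creb3l1 at 8.40, against 8.69 to 8.83. Ddit3 was at 7.50 in AngII 7, above the 7.07 to 7.25 of the other AngII arrays. AngII 6 was high for Pdia5, at 7.71 against 6.98 to 7.28, and for Tmx4, at 8.60 against 7.98 to 8.26. Os9 was at 9.42 in AngII 5, against 9.01 to 9.14, and Chac1 at 5.18 in vehicle 2, against 5.41 to 5.55.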

How the results depend on the processing

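No member was called higher under any of the alternatives, and none lower except Dnajc10 without AngII 6, so the calls ranged from 0 to 1 over the arrays left out in turn. Hspa5 and Ddit3, whose log2 fold changes were near 0, turned sign in several settings. Hspa5 was at -0.013 with the adipocyte mean as a covariate, -0.082 in naming series B alone and -0.003 with the series as a block, and from -0.06 to 0.076 with 1 array left out. Ddit3 was at 0.035 with the adipocyte covariate, 0.13 in series A, 0.015 with the series as a block and 0.002 after quantile normalization, and from -0.04 to 0.067 with 1 array left out. Asns turned to -0.201 in series A, and Hsp90b1 and Atf4 to -0.017 and -0.027 in series B. The median of the measured members was 0.138 in series A and lay between 0.0333 and 0.0749 with 1 array left out. The cause of these shifts was not tested. For the other ER genes, 2 higher and 2 lower by limma, the counts were 2 to 3 higher and 0 to 3 lower with 1 array left out, 0 and 0 in series A, 1 and 0 in series B, 1 and 0 without AngII 8, AngII 5 and vehicle 1 (the 3 arrays with the lowest median correlation to the rest, left out after seeing the data), and 1 and 0 by SAM. The lower count was 1 after median centring or quantile normalization, 0 with the adipocyte covariate and 0 with a replicate block. Over all probe sets the counts higher and lower were 240 and 244 with the adipocyte covariate, 557 and 715 with array weights, 7 and 1 in series A, 207 and 166 in series B, and 68 and 67 by SAM at a q of 0. Without the 3 arrays named above 267 were lower. With 1 array left out they ran from 170 to 509 higher and from 174 to 689 lower. With the replicate number as a block 110 were higher and 81 lower, and no member was called. Same-numbered mice correlated in their deviations between -0.456 and 0.416, and 1 of 7 correlated best with its own number, so the numbers were not taken as pairs. Series A holds 5 arrays, and the number of arrays limits what can be detected in it.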

Other observations

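Chaperones outside the ER were measured for 18 of 21 listed genes, 12 of the cytosol and nucleus and 6 of mitochondria. None was called between AngII and vehicle arrays (limma), and their median log2 fold change was -0.03. At an unadjusted p under 0.05 there were 2 (11.1%, against 21.9% of all probe sets). These were Hspa4l, an Hsp110 family chaperone (0.27, limma adjusted p = 0.141), and Bag3, a co-chaperone of Hsp70 (-0.15, limma adjusted p = 0.169). The heat-inducible Hspa1a was at 8.17, 8.76 and 10.34 (lowest, median, highest) in AngII arrays and at 8.67, 8.82 and 9.97 in vehicle arrays, so single mice of both groups stood more than 1 log2 unit above the median of their group. The median within-group SD of these chaperones was 0.256, against 0.153 for the ER genes, and 6 of the 18 had an interval inside a 1.25-fold change, against 33 of the 45 ER genes.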
